A study of Mus musculus with 4 samples.

Results

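The genes described here encode the cytokines through which stromal cells drive or block the growth of macrophages and osteoclasts: RANKL (Tnfsf11), its decoy receptor OPG (Tnfrsf11b), M-CSF (Csf1), GM-CSF (Csf2), G-CSF (Csf3) and IL-34 (Il34). They were taken by name, 6 of the 24346 genes of the table, and all 6 were found. Expression was measured by RNA-seq in primary mBMSCs, bone marrow stromal cells grown from C57BL/6 mice aged 3 months. The cells had received a scrambled siRNA (siScr) or siRNA against ZBP1, the Z-DNA binding protein 1 (siZBP1), with a lipid transfection reagent, and RNA was taken 72 h later. There were 2 samples in each group, and both groups had otherwise the same treatment. It is not stated whether the 2 samples of a group came from separate animals or cultures, so the p-values measure the spread between these samples, which may be technical.

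RANKL is a membrane-bound or shed ligand of the TNF family. It binds RANK on macrophage precursors and, through TRAF6 and NFATc1, turns them into bone-resorbing osteoclasts. OPG is secreted and captures RANKL before it reaches RANK, so the balance of ligand and decoy is a common measure of the support that stroma gives to osteoclasts. M-CSF and IL-34 share a receptor, CSF1R, and keep macrophages and osteoclast precursors alive and dividing. GM-CSF and G-CSF act through other receptors, on macrophages and granulocytes and on neutrophils respectively, and marrow stroma is known to release them after inflammatory stimulation.

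Transcripts of M-CSF, OPG and IL-34 were lower in siZBP1 cells, by 1.84-fold to 2.64-fold, while RANKL, G-CSF and GM-CSF were at or near 0 in both groups. Values are FPKM, fragment counts divided by transcript length and by the mapped reads of the sample, as deposited, so that levels of different genes can be set side by side. Differences were tested with limma, a linear model fitted to every gene that shares variance between genes, on log2(FPKM + 1). A gene was tested when its FPKM averaged 1 or more over the 4 samples, which 11959 genes did. The fold changes below are ratios of the group means of FPKM, and the log2 fold changes are limma's on the log2(FPKM + 1) scale, which understates the change of low genes. Of the 6 cytokine genes, 3 reached that level and were tested. All 3 were lower after knockdown, with an adjusted p under 0.05, against 1766 lower genes among all tested (14.8%), and 1618 genes were higher (13.5%). All 3 were also over 1.5-fold lower by the group means, against 1099 of all tested genes (9.19%). In each of the 3, both siZBP1 values lay below both siScr values, against 4028 of all tested genes (33.7%).

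The targeted gene was checked first. Zbp1 was at 86.0 and 62.0 FPKM in the siScr samples and at 11.5 and 11.6 FPKM in the siZBP1 samples, 6.40-fold lower by the means (limma log2 fold change -2.56, adjusted p = 0.00322). The labels of the 4 samples fitted its level. The FPKM of a sample summed to between 478000 and 492000, with 16003 to 16565 genes above 0. The number of reads is unknown. Judged by the spacing of the lowest values, depth relative to the shallowest sample was 1.40 and 1.87 in siScr and 1.00 and 1.61 in siZBP1 samples. Transcripts of macrophages were abundant in these cells labelled as mBMSCs, with Lyz2 at 2814 to 5871 FPKM and Csf1r at 467 to 584 FPKM. The RNA thus held transcripts of cells that respond to these cytokines. Bulk RNA does not say which cells made the cytokine transcripts, and in it fewer cells of a type and less RNA per cell cannot be told apart.

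**Figure D1:**
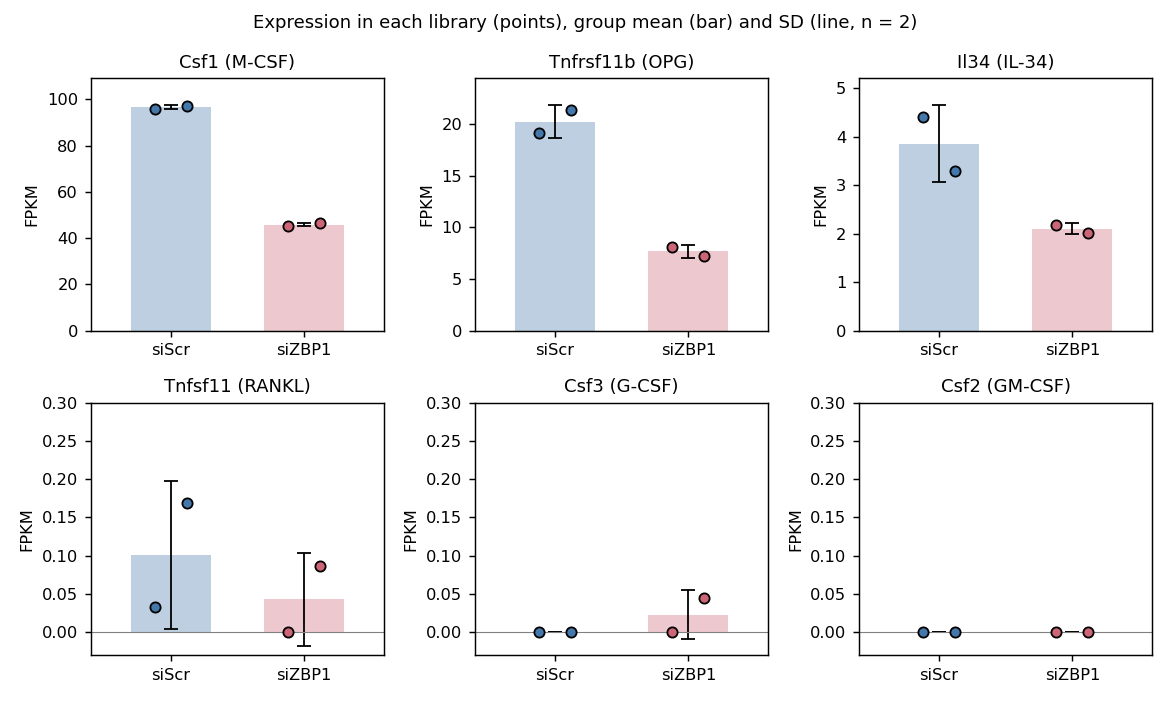
Expression of the 6 cytokine genes in FPKM (vertical axes, with a common scale in the lower row only), with points for the 2 samples of each group, bars for the group mean and lines for the SD. In the upper row the siZBP1 points of Csf1, Tnfrsf11b and Il34 all lie below the siScr points, and in the lower row no value of Tnfsf11, Csf3 or Csf2 exceeds 0.169 FPKM.

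Csf1 encodes M-CSF, the main survival factor of the macrophage lineage. The gene lies on the minus strand of chromosome 3 at chr3:107741048-107760469 (GRCm38). It was at 96.0 and 97.2 FPKM in the siScr samples and at 45.3 and 46.4 FPKM in the siZBP1 samples. The samples of a group were nearly equal, and the groups were far apart. The means were 96.6 ± 0.807 and 45.8 ± 0.747 FPKM (SD, n = 2 each), 2.11-fold lower in siZBP1 cells (limma log2 fold change -1.06, standard error 0.039, adjusted p = 0.00186). By its mean over the samples Csf1 was above 93.9% of the genes above 0, the highest of the 6 cytokine genes. Ranked by log2 fold change it was the 353rd lowest gene, so that 2.95% of the tested genes fell by as much or more. With each sample left out in turn, as with each other setting tried, the fall of Csf1 stayed past the threshold.

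The promoter of Csf1 is shown because it belongs to the most abundant of these genes and the only one of the 3 that fell for which RefSeq's promoter table (GRCm38.p6) has an entry. It was searched on both strands for the 4 words of the TCF and LEF core, which are CTTTG with A or T at each of the next 2 bases, since the study is about Wnt signalling, for the AP-1 word TGANTCA and for TATAA. None of these words is in it, and of 32851 promoters of the same length 16.9% hold a TCF core word, 7.81% the AP-1 word and 24.9% TATAA. The shorter word CTTTGA, searched after the longer words had given no match, occurs once, with its first base at -21 from the start site, and 5257 of all promoters hold it. It is in capitals below. The window covers chr3:107760420-107760719, minus strand, from 250 bases before to 50 after the start.
Csf1 promoter: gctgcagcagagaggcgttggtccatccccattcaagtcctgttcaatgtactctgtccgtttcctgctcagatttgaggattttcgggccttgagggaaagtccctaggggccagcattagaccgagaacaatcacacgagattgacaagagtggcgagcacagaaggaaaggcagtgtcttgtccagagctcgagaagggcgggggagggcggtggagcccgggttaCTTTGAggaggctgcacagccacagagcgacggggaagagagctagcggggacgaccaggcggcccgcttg

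Tnfrsf11b encodes OPG, which stromal cells and osteoblasts secrete. It lies at chr15:54250619-54278484 on the minus strand. Its level was 19.1 and 21.3 FPKM in the siScr samples and 8.12 and 7.20 FPKM in the siZBP1 samples. The highest siZBP1 value was under the lowest siScr value by more than the spread within either group. The means were 20.2 ± 1.56 and 7.66 ± 0.651 FPKM (SD, n = 2 each), 2.64-fold lower in siZBP1 cells, with a log2 fold change of -1.29 (limma, standard error 0.0892, adjusted p = 0.00343). That was the largest fall among the 6 cytokine genes with a test, and 2.02% of the tested genes fell by as much or more. The fall was of like size when any sample was left out (log2 fold change -1.37 to -1.22), but leaving out siZBP1 replicate 1 took the limma adjusted p to 0.0577 and leaving out siZBP1 replicate 2 to 0.0505.

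Il34 encodes IL-34, the second ligand of CSF1R. It lies at chr8:110741829-110805924 on the minus strand and shares 3979 bases with the antisense gene Gm15894 and 287 bases with Gm15895. Whether strand was used in counting is not stated, so reads of these genes may not have been told apart. Il34 was at 4.42 and 3.30 FPKM in the siScr samples and at 2.18 and 2.02 FPKM in the siZBP1 samples. The groups did not overlap, and the siScr samples were more spread than the siZBP1 samples. The means were 3.86 ± 0.787 and 2.10 ± 0.115 FPKM (SD, n = 2 each), 1.84-fold lower in siZBP1 cells (limma log2 fold change -0.64, standard error 0.145, adjusted p = 0.0367). Of the tested genes, 6.36% fell by as much or more. This was the least firm of the 3 calls. The direction was the same throughout, but the limma adjusted p reached 0.0798 without siScr replicate 1, 0.158 and 0.162 when siZBP1 replicate 1 or 2 was left out, 0.0535 after quantile normalization and 0.0622 without the filter on low values.

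**Figure D2:**
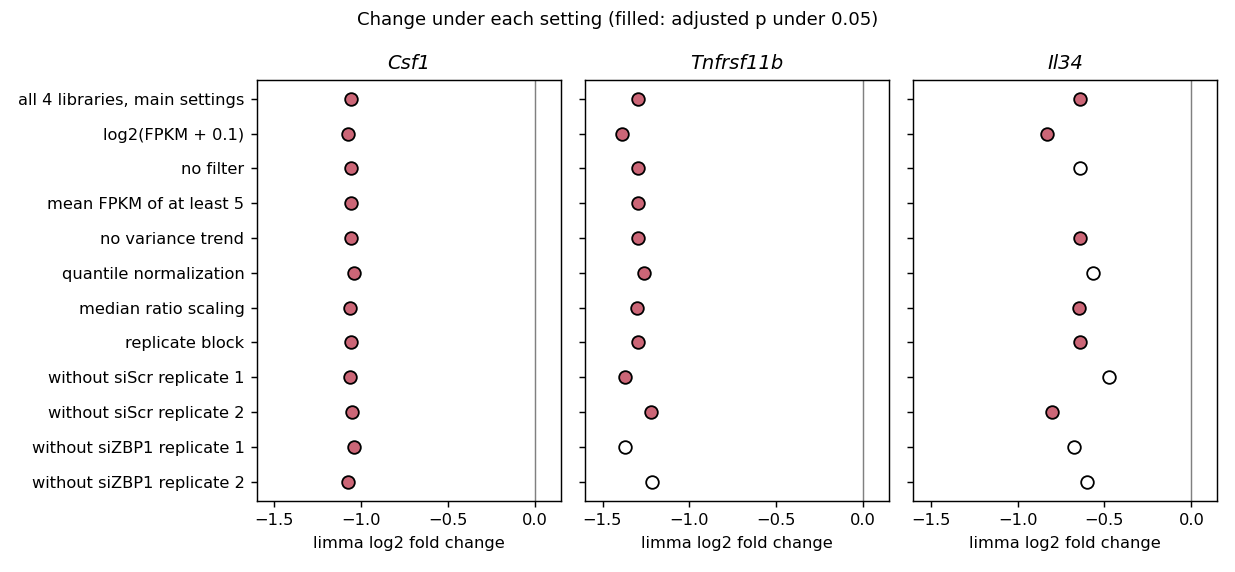
Limma log2 fold change of siZBP1 against siScr (horizontal axis) for Csf1, Tnfrsf11b and Il34 under each processing setting (rows), filled where the adjusted p was under 0.05. All points lie below 0, and the open points are those of Tnfrsf11b with either siZBP1 sample left out and of Il34 under 5 settings; Il34 has no point in the row of the stricter filter, which it does not reach.

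Tnfsf11, the gene of RANKL, was close to the limit of detection in every sample. It lies at chr14:78277445-78308043 on the minus strand. Its values were 0.0325 and 0.169 FPKM in the siScr samples and 0 and 0.0862 FPKM in the siZBP1 samples. The groups overlapped, and the 2 siScr samples differed from each other by more than the group means did. The means were 0.101 ± 0.0965 and 0.0431 ± 0.0610 FPKM (SD, n = 2 each). Scaled by the relative depth, these values were close to 1, 7, 0 and 3 times the smallest step of the gene, which would be 8 fragments in the siScr samples together and 3 in the siZBP1 samples. At these estimated numbers the rate in siZBP1 cells was 0.468 of that in siScr cells, with an exact 95% interval of 0.08 to 1.95 that covers counting error only. A difference in RANKL was therefore not detectable at this depth in either direction. Only 14.5% of the genes above 0 had a lower mean.

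The promoter of Tnfsf11 is shown as that of the ligand that was almost silent here. In the same search it held no TCF core word, no CTTTGA and no AP-1 word. The word TATAA occurs on both strands, overlapping, with first bases at -31 and -30, and is in capitals. The window covers chr14:78307994-78308293, minus strand, in GRCm38.p6.
Tnfsf11 promoter: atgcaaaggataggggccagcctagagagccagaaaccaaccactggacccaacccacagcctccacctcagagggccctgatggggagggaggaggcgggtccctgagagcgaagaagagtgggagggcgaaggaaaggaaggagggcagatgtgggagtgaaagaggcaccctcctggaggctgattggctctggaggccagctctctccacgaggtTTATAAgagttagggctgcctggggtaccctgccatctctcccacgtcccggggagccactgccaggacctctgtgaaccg

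Csf3 and Csf2, the genes of G-CSF and GM-CSF, were not expressed at a measurable level. Csf3 lies at chr11:98701263-98703629 on the plus strand. It was listed at 0 in both siScr samples and in siZBP1 replicate 1, and at 0.0451 FPKM in siZBP1 replicate 2, which would be 1 fragment. Csf2 lies at chr11:54247271-54249667 on the minus strand, where it shares 2068 bases with the antisense gene Gm12223, and was listed at 0 in all 4 samples. By the estimated depth, 3 fragments of Csf2 would be 0.205 to 0.383 FPKM and 3 fragments of Csf3 0.116 to 0.217 FPKM. Levels under these are not told from 0 in these samples, and no fold is given for either gene.

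By the group means the order of the levels was Csf1, Tnfrsf11b, Il34 and Tnfsf11 in both siScr and siZBP1 cells, with Csf3 and Csf2 below them. Csf3 and Csf2 were tied at 0 in siScr cells, and in siZBP1 cells Csf3 was above Csf2 by its value in replicate 2 alone. In every sample Csf1 exceeded Tnfrsf11b, by 4.55-fold to 6.44-fold in FPKM, and Tnfrsf11b exceeded Il34. The lower neighbours Tnfsf11, Csf3 and Csf2 were not separated beyond their spread, and in siZBP1 replicate 1 all 3 were at 0.

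Ratios of FPKM within a sample were compared by exact two-sided permutation tests, which with 2 samples against 2 cannot give a p below 0.333. For RANKL over OPG the ratio was 0.00170 and 0.00792 in the siScr samples and 0 and 0.0120 in the siZBP1 samples. The siZBP1 samples were the lowest and the highest of the 4, with means of 0.00481 and 0.00598 (exact permutation p = 1.00, adjusted p = 1.00 over the 5 ratios). With 0.1 FPKM added to both genes the ratio was higher in siZBP1 cells by 0.92 on the log2 scale (exact permutation p = 0.667), and with 1 FPKM added by 1.22 (exact permutation p = 0.333). These values changed with the amount added, RANKL being near or under it and OPG well above it.

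The other ratios rest on genes with a measurable level. M-CSF over IL-34, the 2 ligands of CSF1R, was 21.7 and 29.4 in the siScr samples and 20.7 and 22.9 in the siZBP1 samples. The groups overlapped (log2 difference -0.21, exact permutation p = 0.667, adjusted p = 0.833). The next 3 ratios were chosen after values had been seen. M-CSF over OPG was 5.02 and 4.55 in siScr samples and 5.58 and 6.44 in siZBP1 samples (log2 difference 0.33, exact permutation p = 0.333, adjusted p = 0.556). IL-34 over OPG was 0.231 and 0.155 in siScr samples and 0.269 and 0.281 in siZBP1 samples (log2 difference 0.54, exact permutation p = 0.333, adjusted p = 0.556). Both were without overlap, the siZBP1 samples being the higher. M-CSF over its receptor Csf1r was 0.206 and 0.207 in siScr samples and 0.0776 and 0.0831 in siZBP1 samples (log2 difference -1.36, exact permutation p = 0.333, adjusted p = 0.556). Here the siZBP1 samples were the lower, with limma log2 fold changes of -1.06 for Csf1 and 0.28 for Csf1r.

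**Figure D3:**
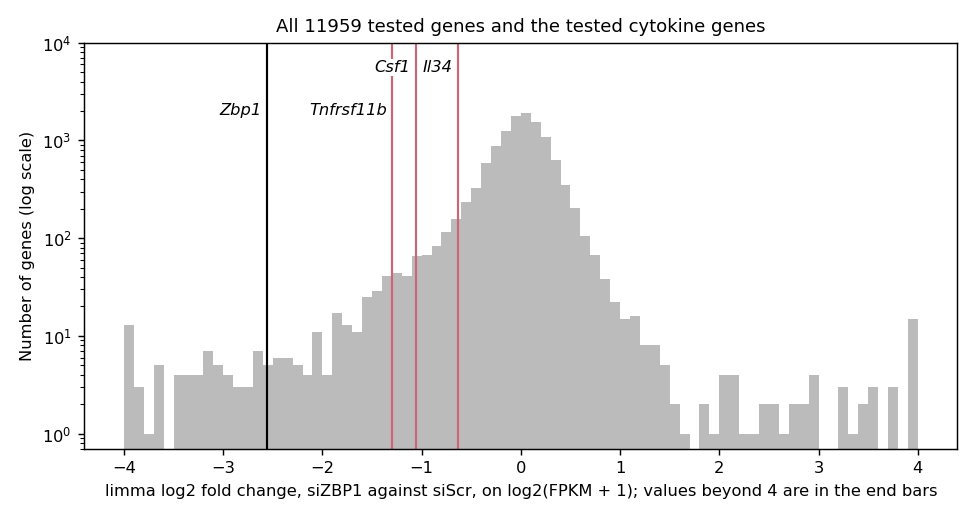
Histogram of the limma log2 fold change of all 11959 tested genes (horizontal axis; the vertical axis is the number of genes on a log scale), with lines at Csf1, Tnfrsf11b, Il34 and the targeted gene Zbp1. The 3 cytokine genes lie on the lower side, between -1.29 and -0.64, and Zbp1 lies lower at -2.56.

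Transcripts of cytokines are often short-lived because of AU-rich elements, runs of the word ATTTA in the 3' UTR. Sites in the 3' UTRs are shown for the gene best known for this element and for the 2 cytokine genes with the largest falls. All 6 cytokine genes held ATTTA at least once in the 3' UTR of the GENCODE transcript used: 9 times in Csf2, 6 times in Tnfsf11 and in Csf3, 4 times in Csf1, 3 times in Tnfrsf11b and once in Il34. Among 10749 tested genes with a 3' UTR, 69.5% held it, so its presence does not set these genes apart. The longer word TTATTTATT, which contains ATTTA, occurred only in Csf2 among the 6, in 4 overlapping copies, and in 7.72% of the tested genes. Words are in capitals, and positions count from the first base of the 3' UTR.
Csf2, word at 241: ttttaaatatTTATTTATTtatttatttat
Csf1, word at 233: catactgccactATTTAttgtgggccctgg
Tnfrsf11b, word at 984: tacagtattgctATTTAtattcatgcagat

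The study used 2 siRNAs against ZBP1, and which of them was used for RNA-seq is not stated in the sources used here. An siRNA can also lower transcripts whose 3' UTR pairs with its seed, positions 2 to 8 of its antisense strand. The 3 cytokine genes that were lower, Csf1, Tnfrsf11b and Il34, held no 7-base match to the seed of either siRNA. Only the 3' UTR of the GENCODE transcript used for each gene was searched. Whether either siRNA acted on genes other than Zbp1 was not tested. Tnfsf11 held 1 match to the seed of the first siRNA, siZBP1-1, as did 11.1% of the tested genes, and none to that of siZBP1-2, matched by 2.16%. This match is shown with its 7 bases in capitals.
Tnfsf11, siZBP1-1 seed match at 1011: ctatagtttatCAGCCAAaaaacaatccac

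The genes whose profile over the 4 samples was most like each of the expressed cytokine genes were found by the Euclidean distance between centred log2(FPKM + 1) values. Nearest to Csf1 were Angpt4 (distance 0.0313), Ccnd1, the gene of cyclin D1 (0.0398), and Dbp, a circadian transcription factor (0.0436). Ccnd1 was at 107 and 108 FPKM in siScr samples and at 49.3 and 52.5 FPKM in siZBP1 samples. Nearest to Tnfrsf11b were Itga10, an integrin chain that binds collagen (0.0366), Pdlim1 (0.0779) and Kazn (0.120). By the group means these were 6.44-fold, 2.51-fold and 4.52-fold lower in siZBP1 cells, against 2.64-fold for Tnfrsf11b. The log2(FPKM + 1) scale understates the change of low genes, so a small distance does not mean an equal fold. For Il34 the nearest were Phldb1 (0.0302), Nob1, a factor of ribosome assembly (0.0380), and the small nucleolar RNA host gene Snhg4 (0.0443). These distances over 4 samples are descriptions only.

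Receptors of these cytokines are carried mainly by blood-derived cells. Of 10 listed receptor and adaptor genes 9 were tested, of which 2 were higher, 1 was lower and 6 did not pass the test, with a median log2 fold change of 0.06 (0.0045 over all tested genes). Among all tested genes 13.5% were higher and 14.8% lower. Ptprz1, the listed gene under the filter, was at 0.849 and 1.68 FPKM in siScr samples and at 0.159 and 0.178 FPKM in siZBP1 samples. Csf1r, the receptor of M-CSF and IL-34, was at 467 and 470 FPKM in siScr samples and at 584 and 558 FPKM in siZBP1 samples (limma log2 fold change 0.28, adjusted p = 0.0147). Csf1r is also counted among the macrophage markers below. Csf2rb, the signalling chain of the GM-CSF receptor, was also higher, at 15.7 and 15.1 against 20.6 and 19.5 FPKM (limma log2 fold change 0.36, adjusted p = 0.0157). Sdc1, a heparan sulfate proteoglycan that can bind IL-34, was lower, at 61.4 and 56.6 against 32.6 and 31.5 FPKM (limma log2 fold change -0.86, adjusted p = 0.00338). Tnfrsf11a, the gene of RANK, was at 11.62 and 10.98 against 12.9 and 12.5 FPKM and did not pass the test (adjusted p = 0.138, limma). Csf3r, the G-CSF receptor, had a log2 fold change of -0.27 (adjusted p = 0.102, limma). Without siScr replicate 1 the list had 1 lower and 0 higher genes, and with either siZBP1 replicate left out it had 0 called.

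Local inducers of RANKL are cytokines, prostaglandin enzymes and growth factors that act on stromal cells. Of 15 listed, 10 were tested, with 2 lower, 2 higher and a median of 0.01 (14.8% lower and 13.5% higher among all tested genes). Il1b, the gene of the inflammatory cytokine interleukin-1 beta, was at 0.714 and 1.02 FPKM in siScr samples and at 3.10 and 5.77 FPKM in siZBP1 samples (5.11-fold higher by the means, limma adjusted p = 0.0210). Il11, which stromal cells make and which favours osteoclast formation, was at 1.97 and 1.75 against 0.601 and 0.423 FPKM (limma log2 fold change -0.92, adjusted p = 0.0146). Il1b and Il11 were picked as the largest changes of the list. Both siZBP1 values of Il11 lay below both siScr values, as in 33.7% of all tested genes, and those of Il1b lay above. Vegfa, a growth factor of vessels, was higher and Wnt5a, a Wnt ligand, was lower, with limma log2 fold changes of 0.29 and -0.32. Ptges, the gene of a prostaglandin E synthase and the third largest change of the list, did not pass the test (limma log2 fold change -0.41, adjusted p = 0.0990). Il17a was at 0 in all samples. Leaving out any 1 sample lost calls of this list, in part because genes were no longer tested. With either siScr replicate left out, 8 of the 10 genes reached the level for a test, and Il11 and Ptges did not.

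Hormones and cytokines raise RANKL through receptors of the stromal cell itself. Of 18 such receptors and mediators 17 were tested, of which 4 were lower and 2 higher, with a median of 0.10. The shares among all tested genes were 14.8% lower and 13.5% higher. Pth1r, the receptor of parathyroid hormone, was at 48.4 and 35.1 FPKM in siScr samples and at 10.3 and 11.1 FPKM in siZBP1 samples (limma log2 fold change -1.86, adjusted p = 0.00485). Lifr, which serves leukaemia inhibitory factor and oncostatin M, was at 23.2 and 21.8 against 9.47 and 9.13 FPKM (limma log2 fold change -1.19, adjusted p = 0.00250). Vdr, the vitamin D receptor, was at 3.24 and 2.58 against 1.61 and 1.40 FPKM (limma log2 fold change -0.64, adjusted p = 0.0314). In all 3, picked as the largest changes of the list, both siZBP1 samples were the lower, as in 33.7% of all tested genes. Osmr, a receptor chain of oncostatin M, was the other lower gene (log2 fold change -0.55), and the prostaglandin receptor Ptger4 and the transcription factor Stat3 were higher (0.41 and 0.24). Without siScr replicate 1 there were 2 lower and 0 higher genes, without siScr replicate 2 there were 4 and 0, without siZBP1 replicate 1 there were 0 and 0, and without siZBP1 replicate 2 there were 1 and 0.

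Other factors of stroma besides OPG were listed here as restraints on osteoclast formation, a role that was not tested. Of 12 listed, 9 were tested, with 6 lower, 0 higher and a median of -0.67. Among all tested genes 14.8% were lower and 13.5% higher. The list was chosen with earlier results of these data known. The paper had already listed Wif1, Sfrp1, Wnt4 and Wnt16 as lower Wnt genes in these same samples. The count and median are therefore descriptions only. The list contains Wnt ligands and the Wnt antagonists Wif1 and Sfrp1. Wif1 was at 6.47 and 4.002 FPKM in siScr samples and at 0.728 and 0.226 FPKM in siZBP1 samples (limma log2 fold change -2.07, adjusted p = 0.0104). Sfrp1, which can also bind RANKL, was at 8.86 and 6.24 against 2.06 and 2.27 FPKM (limma log2 fold change -1.42, adjusted p = 0.00910). Wnt4, a ligand known to dampen osteoclast formation, was at 2.34 and 1.75 against 0.636 and 0.380 FPKM (limma log2 fold change -1.01, adjusted p = 0.0189). In these 3, picked as the largest changes of the list, both siZBP1 values lay below both siScr values, as in 33.7% of all tested genes. Slit3, Wnt16 and Tgfb2 were the other lower genes, with log2 fold changes of -0.84, -0.67 and -0.39. Leaving out siScr replicate 1 or either siZBP1 replicate lost calls of this list. Without siScr replicate 1, 7 of the 9 genes reached the level for a test, and Wnt4 and Wnt16 did not. Under the stricter filter of 5 FPKM there was 1 lower gene, among 4 genes left.

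**Figure D4:**
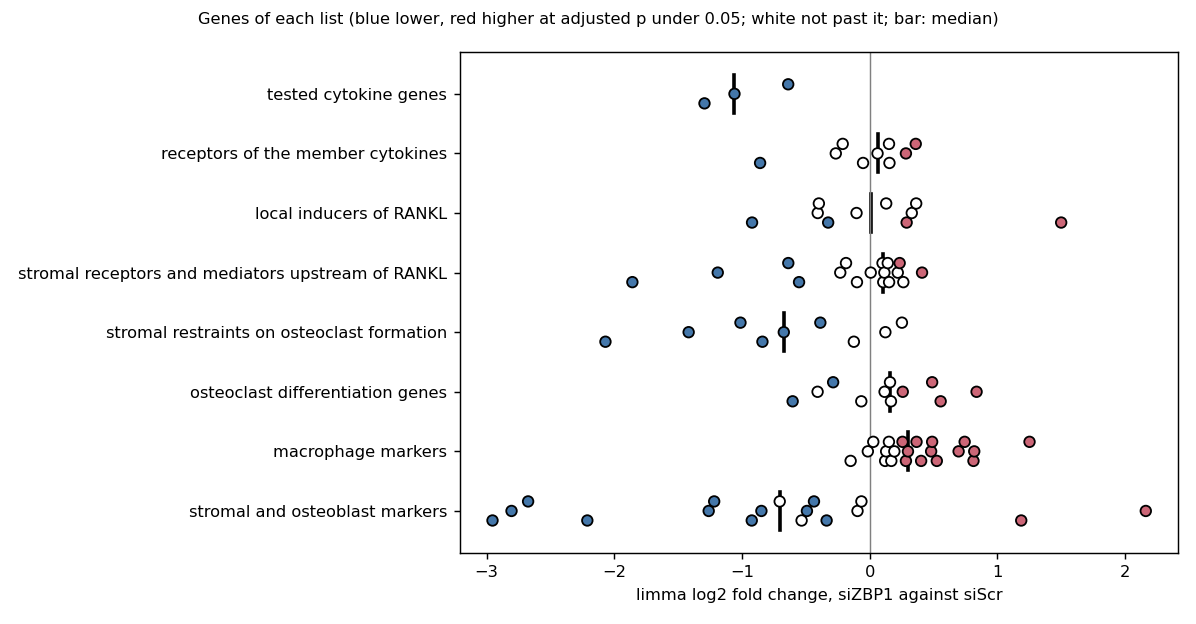
Limma log2 fold change of siZBP1 against siScr (horizontal axis) for the tested genes of each list (rows), one point a gene, blue where lower and red where higher at an adjusted p under 0.05, white otherwise, with a bar at the median. The 3 tested cytokine genes and the genes listed as restraints on osteoclast formation (median -0.67) lie mostly below 0, and the macrophage markers (median 0.30) mostly above. The lists were chosen with earlier results of these data known.

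Genes of osteoclasts, the cells that RANKL and M-CSF make from macrophages, moved in both directions. Of 16 listed, 11 were tested, with 2 lower, 4 higher and a median of 0.16 (14.8% lower and 13.5% higher among all tested genes). Itgb3, the integrin chain of the osteoclast's sealing zone, was at 5.41 and 8.44 FPKM in siScr samples and at 12.9 and 12.9 FPKM in siZBP1 samples (limma log2 fold change 0.84, adjusted p = 0.0380). Atp6v0d2, a proton pump subunit used in cell fusion, was at 52.1 and 51.7 against 74.0 and 79.8 FPKM (limma log2 fold change 0.56, adjusted p = 0.00543). Ctsk, the collagen-degrading protease cathepsin K, was lower at 41.5 and 43.1 against 28.5 and 26.5 FPKM (limma log2 fold change -0.60, adjusted p = 0.00543). Ckb was the other lower gene, and Tyrobp and Mitf were the other higher ones. Tyrobp is also counted among the macrophage markers below. Nfatc1, the master regulator of the lineage, had a log2 fold change of -0.07 and did not pass the test. Calcr, a marker of mature osteoclasts, was at 0.0239 FPKM in siScr replicate 1 and at 0 in the other samples. With either siScr replicate left out there were 2 lower and 3 higher genes, and with either siZBP1 replicate left out 0 and 0.

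Many markers of macrophages and of stromal cells also differed between the groups. Of 22 macrophage markers 21 were tested, and 13 were higher and 0 lower (range -0.15 to 1.25, median 0.30). Among all tested genes 13.5% were higher and 14.8% lower. Their summed level was 13200 and 14330 FPKM in siScr samples and 19230 and 18390 FPKM in siZBP1 samples. Mrc1, the mannose receptor, rose most, from 36.6 and 48.9 to 101.6 and 102.7 FPKM (limma log2 fold change 1.25, adjusted p = 0.00789). The lysozyme genes Lyz1 and Lyz2, which are near-identical copies whose reads may be shared, rose by 0.82 and 0.81 on limma's log2 scale, whereas Adgre1, the gene of F4/80, had a log2 fold change of 0.12 and did not pass the test. Of 18 stromal and osteoblast markers 17 were tested, with 11 lower, 2 higher and a median of -0.70 (range -2.96 to 2.16). Alpl, alkaline phosphatase, was at 243 and 157 against 25.7 and 23.0 FPKM, a limma log2 fold change of -2.96. Cxcl12, a niche chemokine of stroma, and Sp7, a transcription factor of osteoblasts, were lower, with log2 fold changes of -2.81 and -2.68. Nt5e and Spp1 were higher, by 2.16 and 1.19, and Col1a2, a chain of type I collagen, had a log2 fold change of -0.09 and did not pass the test. The summed stromal level was 8728 and 8705 FPKM in siScr samples and 8345 and 8206 FPKM in siZBP1 samples. Without Spp1, which was left out after its values were seen, the sum was 7211 and 6080 FPKM against 3694 and 3759 FPKM. The part of cell makeup in the lower M-CSF, OPG and IL-34 was not tested. With either siZBP1 replicate left out, 0 macrophage markers and 2 stromal markers were past the threshold.

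Other cells that make RANKL or these cytokines left few transcripts. Of the T cell markers, Cd3g and Cd8b1 were at 0 in all samples and only Cd4, which macrophages can also express, was tested and higher (limma log2 fold change 0.47), though not when siScr replicate 1 or either siZBP1 replicate was left out. The summed T cell level was 4.21 to 6.20 FPKM. No B cell marker reached the level for a test, with a summed level of 0.0599 to 0.527 FPKM. Of the neutrophil markers S100a9, Mpo, Elane and Ltf were at 0, and S100a8 was at 0.322 to 0.597 FPKM in 3 samples and at 4.52 FPKM in siZBP1 replicate 2, without passing the test. Kdr was the only endothelial marker tested and did not pass it, and the summed endothelial level was 4.52 to 5.42 FPKM.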

How the data were processed

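RNA-seq of 4 samples of mBMSCs was used, 2 transfected with siScr and 2 with siRNA against ZBP1. FPKM values per gene and sample were deposited by the authors. The methods name TruSeq libraries, mapping with TopHat and FPKM from HTSeq, whereas the submitters' processing notes name TopHat, Cufflinks and mm10. The annotation is not given in the sources used here. Columns of group means were not used.

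Genes averaging 1 FPKM or more were fitted on log2(FPKM + 1) with limma 3.58.1 in R 4.3.3, allowing a variance trend, and p-values were adjusted over all tested genes by Benjamini and Hochberg at 0.05. The fit was tested on simulated data. Ratios were tested by exact permutation (Python 3.11.15, scipy 1.17.1). Relative depth came from the spacing of values under 0.3 FPKM. Positions and 3' UTRs are from GENCODE M21 (GRCm38) and promoters from RefSeq (GRCm38.p6), which had entries for 3 of the 6 genes.

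The 6 genes and all lists were chosen with earlier results of these data known. Named genes are the 6, Zbp1, in each list the 3 tested genes with the largest absolute log2 fold change and those at 0, and the 3 genes nearest in profile. Other genes were named after their values were seen. Trac and Ly6g were not found by name, and 1 gene at 0 is not reported here. Alternatives varied the pseudocount, filter, variance model, scaling, replicate block and samples.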

Additional observations from a re-analysis of the deposited data

How the results depend on the processing

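Csf1 stayed past the threshold in 11 of 11 alternatives (log2 fold change -1.07 to -1.04), Tnfrsf11b in 9 of 11 and Il34 in 5 of 10, all in the same direction. Leaving out each sample in turn gave -1.37 to -1.22 for Tnfrsf11b, with limma adjusted p of 0.0577 without siZBP1 replicate 1 and 0.0505 without siZBP1 replicate 2, and -0.80 to -0.47 for Il34, with 0.0798 without siScr replicate 1, 0.158 without siZBP1 replicate 1 and 0.162 without siZBP1 replicate 2. Il34 was at -0.64 without a filter (adjusted p = 0.0622) and at -0.56 after quantile normalization (adjusted p = 0.0535), and was not fitted at a mean FPKM of at least 5. With log2(FPKM + 0.1) the group difference was -0.47 for Tnfsf11 and 0.27 for Csf3, against -0.08 and 0.03. With samples left out Csf3 went from 0 to 0.064. The log2 ratio of RANKL to OPG, 0.32 from the mean ratios, was 1.22 with 1 FPKM added and -0.40 to 1.82 with samples left out, with no value without siZBP1 replicate 2, and the cause was not tested. Lower genes numbered 1520 to 1841 and higher genes 1231 to 1812 in the settings with all samples, and 48 to 1467 and 22 to 1248 with a sample left out, where the lone sample of a group is assumed to vary like the other group. Of the 50 calls in the lists, 2 were kept without siZBP1 replicate 1 and 3 without siZBP1 replicate 2, and none changed direction in any setting.

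Samples with the same replicate number did not deviate together (r = -0.063 across 11959 genes). With 2 samples in each group this cannot show whether the samples were paired in origin, which is not stated. With the replicate block the limma adjusted p was 0.00143 for Csf1, 0.00321 for Tnfrsf11b and 0.0292 for Il34, with 1654 lower and 1465 higher genes, and no call of the 6 genes changed. Depth limits Tnfsf11, estimated at 0 to 7 fragments in a sample, Csf3, at 0 or 1, and Csf2, at 0. No test was run for Csf2, which has no value above 0.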
